A study of Mus musculus with 2 samples.

Results

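A group of hepatocyte barcodes that carried transcripts of NF-kB-linked genes was described within the liver library of 1 mouse labelled as a glutamine synthetase knockout (GS-KO). Membership was set by counts. A barcode of the knockout library was taken when it held at least 1000 unique molecular identifiers (UMIs, each standing for 1 captured RNA molecule), at least 3 UMIs summed over Csf1, Birc3, Relb, Icam1, Ripk2, Ikbke, Steap4 and Plscr1, and at most 1 UMI summed over 9 markers of Kupffer, sinusoidal endothelial and stellate cells (Clec4f, Vsig4, Cd5l, C1qa, C1qb, C1qc, Stab2, Reln and Dcn). This gave 277 members of the 1834 knockout barcodes that held at least 1000 UMIs, out of 3537 such barcodes in both libraries and 341974 barcodes of any size. Each member was set beside a barcode of the same library that held 0 UMIs of the 8 genes, met the other limits and had the nearest total, so that 277 matches were drawn from 673 such barcodes.

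Both mice carried floxed Glul alleles (Glul f/f), bore no tumour and were 11 weeks old when infected. The mouse labelled GS-KO (Cre) received AAV8-Cre, and the mouse labelled GFP control received AAV8-GFP. AAV8 is a vector that reaches hepatocytes efficiently, and the promoter that drove Cre was not given in the sources used here. Livers were digested with collagenase II 2 weeks after the virus, and hepatocytes and purified non-parenchymal cells of 1 mouse per group were loaded. The labels name both a single-cell and a single-nucleus preparation. Members and matches come from 1 library of 1 mouse, and the control is another library of another mouse, so no test between groups was possible, no p-value is given, and virus, mouse and library cannot be told apart between the libraries. Intervals are exact 95% intervals, Poisson for a level, conditional binomial for a ratio and Clopper-Pearson for a share, and all of them cover counting error only.

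NF-kB is a family of dimeric transcription factors built from RelA, RelB, c-Rel and the products of Nfkb1 and Nfkb2. In resting cells the dimers are held in the cytoplasm by inhibitors of the I-kappa-B family, and signals from TNF, interleukin-1 or microbial products activate kinases that release them. A slower, non-canonical branch runs through the kinase encoded by Map3k14 and favours RelB with the processed product of Nfkb2. In hepatocytes the pathway is known for limiting cell death in response to TNF, for chemokine production and, together with STAT3, for the acute phase response. Many of its targets are its own inhibitors, so a cell that has used the pathway often carries their transcripts.

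The promoters of several genes described below held the 10-base NF-kB consensus (GGG, a purine, any pair of bases, a pair of pyrimidines and CC, searched on both strands, overlapping matches allowed) between 250 bases before and 50 bases after the start given by RefSeq on GRCm38.p6. They are shown because these genes, an inhibitor, a rule gene, a transcription factor, a regulator and 3 chemokines, are among those described as higher in members. Each line is read 5′ to 3′ along the gene, and capitals mark the match or overlapping matches.
Nfkbia: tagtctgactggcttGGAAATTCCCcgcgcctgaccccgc
Csf1: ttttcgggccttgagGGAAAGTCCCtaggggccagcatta
Irf1: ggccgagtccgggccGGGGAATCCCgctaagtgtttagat
Tnip1: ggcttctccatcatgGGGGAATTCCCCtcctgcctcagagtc
Cxcl1: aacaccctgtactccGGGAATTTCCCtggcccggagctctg
Cxcl2: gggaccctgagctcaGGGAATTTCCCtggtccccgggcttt
Cxcl10: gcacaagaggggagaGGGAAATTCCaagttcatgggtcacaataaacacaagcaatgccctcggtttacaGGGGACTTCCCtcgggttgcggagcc
The stretches lie at chr12:55492652-55492691 (minus strand, match from 29 bases before the Nfkbia start), chr3:107760599-107760638 (minus, 154 bases before Csf1), chr11:53769986-53770025 (plus, 13 bases before Irf1), chr11:54962972-54963013 (minus, 58 bases before Tnip1), chr5:90891159-90891199 (plus, 71 bases before Cxcl1), chr5:90903787-90903827 (plus, 97 bases before Cxcl2) and chr5:92348968-92349063 (minus, first match 159 bases before Cxcl10). The consensus was found in 8.46% of the 32851 promoters of this length in the table. Counted by gene, with a match in any promoter of the gene, it was found in 2581 of 27025 genes (9.55%). Among the genes compared below it was found in 298 of the 2304 that matched by symbol (12.9%). It was found in 14 of 52 genes at least 2-fold higher in members (26.9%) and in 3 of 29 at least 2-fold lower (10.3%). Of the 8 rule genes 6 were matched, and Csf1 and Steap4 held it while Birc3, Icam1, Ikbke and Plscr1 did not within this window. A match of letters is a description and not a measured binding site.

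The label hepatocyte was checked against markers. Each of the 277 members held at least 3 UMIs of 11 hepatocyte markers, which summed to 52119 CPM (counts per 1000000 UMIs of the summed group) in members, 56440 CPM in matches and 62539 CPM in control barcodes within the same UMI and marker limits. Small barcodes of 200 to under 400 UMIs, which served as a measure of free RNA in the knockout library, held 126496 CPM of the same markers, so secreted protein transcripts alone do not separate a hepatocyte from its surroundings. Transcripts of 26 listed hepatocyte transcription factors summed to 7912 CPM in members, 8456 in matches and 1885 in small barcodes. The gap was not common to all of them: Zbtb20 stood at 2427 CPM in members and 258 in small barcodes, Thrb at 988 and 39.3, but Cebpa at 48.4 and 93.5 and Creb3l3 at 242 and 315. The nuclear transcript Malat1 differed in the same way as the sum (39934 and 1365 CPM), and its part in the gap was not tested. Hnf4a, the transcription factor that maintains hepatocyte identity, stood at 153 CPM in members, 227 in matches and 107 in small barcodes. Markers of other cell types that the rule did not use were few in UMIs, and those of cholangiocytes had the most in members. The 8 cholangiocyte markers summed to 68 UMIs in 58 members and 74 UMIs in 65 matches (173 and 191 CPM). They stood at 77.2 CPM in control barcodes and 64.9 CPM in small barcodes. Plasma cell markers gave 42 UMIs in 37 members, of which Xbp1 had 41, and 232 UMIs in 38 matches. The 8 Kupffer markers outside the rule summed to 56 UMIs in 49 members and 91 UMIs in 72 matches, endothelial markers to 33 and 19, stellate markers to 17 and 24, T and NK cell markers to 4 and 2, and B cell markers to 1 and 5. Vsig4, 1 of the markers the rule limits, was at 0 in members. Neutrophil markers gave 8 UMIs in members and 0 in matches, and 1 member held 6 of them. Monocyte and dendritic markers gave 5 UMIs in members, all in 1 barcode. Immunoglobulin genes and Jchain differed in the other direction, with 19 UMIs over 17 members and 2465 UMIs in matches. Of these 2465, nearly all came from barcodes with plasma cell RNA, since 5 matches held 10 or more immunoglobulin UMIs and no member did.

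The libraries held 57973740 UMIs (GS-KO) and 61635695 UMIs (control). Glul, the floxed gene, stood at 13.9 and 114 CPM over all barcodes. In members it had 13 UMIs (33.1 CPM) and in matches 17 (43.9 CPM), against 128 CPM in control barcodes. Members held a median of 1279 UMIs (1002 to 3787) and 845 genes, and matches 1280 UMIs (1002 to 3629) and 838 genes. The median mitochondrial share was 1.97% in members and 1.98% in matches, and the nuclear transcript Malat1 stood at 39934 and 40259 CPM. Depth, median mitochondrial share and Malat1 were thus level between members and matches. Over the summed counts, mitochondrial UMIs made up 2.09% in members and 2.27% in matches, and ribosomal protein UMIs 0.716% and 0.826%. The control barcodes differed from both, with a median of 3.16% mitochondrial UMIs and 19871 CPM of Malat1. Of the barcode sequences, 8108 occurred in both libraries, among them those of 14 members and 12 matches, but none of the 14 held 1000 UMIs in the control library.

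Members made up 17.5% of the 1586 knockout barcodes within the UMI and marker limits (277 barcodes, interval 15.6 to 19.4%). By the same rule 6 of 1604 control barcodes qualified (0.374%, 0.137 to 0.812%). The sum over the 8 genes ran from 3 to 33 in members. In the knockout library 673 barcodes had a sum of 0, 416 had 1, 220 had 2, 89 had 3, 73 had 4 and 115 had 5 or more. The sum fell away without a gap at the threshold. When each barcode was thinned to 1000 UMIs, the mean sum was 1.05 with a variance 2.53 times the mean in the knockout library, and 0.142 with a variance 1.19 times the mean in the control library. A variance divided by the mean can rise with the mean, and the means were unlike. These values therefore do not compare how evenly the sum was spread in the libraries. After thinning 12.4% of knockout and 0.249% of control barcodes reached 3. The 6 control barcodes had sums of 3 in 5 cases and 10 in the other. None of the 6 held a UMI of Tnfaip3, Cxcl10 or Col4a3, and the barcode with a sum of 10 held 1 UMI each of Nfkbia and Irf1.

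**Figure D1:**
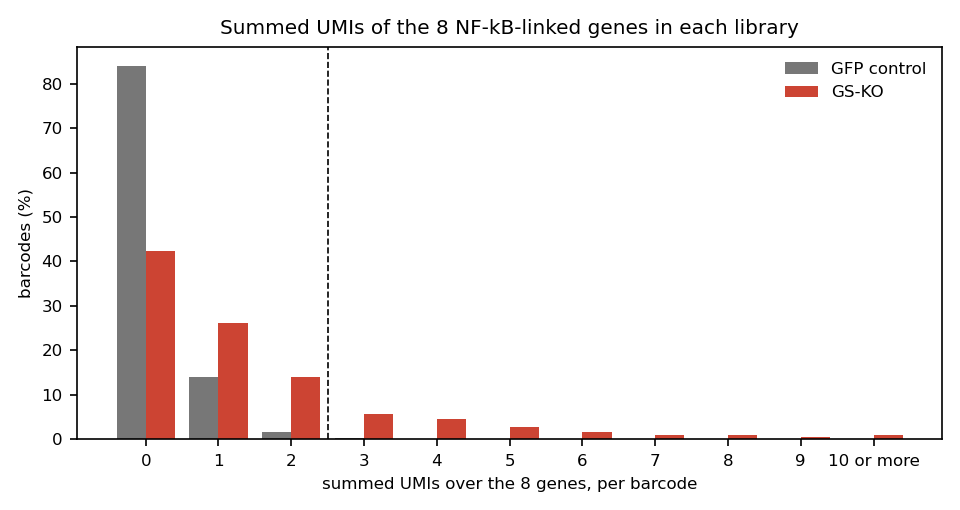
Share of barcodes (vertical axis, % of barcodes within the UMI and marker limits) by summed UMIs over the 8 genes (horizontal axis), for the GFP control (grey) and GS-KO (red) libraries; the dashed line is the threshold. At a sum of 0 stand 84.1% of control and 42.4% of knockout barcodes, and nearly all barcodes right of the line are from the knockout library.

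The 8 rule genes are given as a description, since they chose the members. Csf1, the growth factor of macrophages, had 118 UMIs in 74 members. Birc3, a ubiquitin ligase that limits death signalling from TNF receptors, had 204 UMIs in 135 members. Relb, the subunit of the non-canonical branch, had 92 in 82. Icam1, an adhesion molecule for leukocytes, had 95 in 77. These 4 are textbook NF-kB targets, and each was seen in fewer than 50% of the members. Ripk2, a kinase downstream of NOD receptors, had 163 UMIs in 97 members, and Ikbke, a kinase related to the I-kappa-B kinases, 201 in 141. Steap4, a metalloreductase, had the most, with 321 UMIs (23.4% of all UMIs of the sum) in 186 members. Plscr1, a membrane protein known to respond to interferon, had 175 in 117. The levels in members, from 234 CPM for Relb to 817 CPM for Steap4, lay above those in small barcodes of the same library, which ranged from 15.4 CPM (Relb) to 232 CPM (Steap4). In control barcodes the 8 genes ranged from 0.977 CPM (Relb) to 57.1 CPM (Steap4).

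Most members were positive for several of the genes. The sum came from 1 gene in 10 members, 2 genes in 60, 3 genes in 110, 4 in 58, 5 in 25 and 6 or more in 14. The highest sum, 33, was in a barcode of 2722 UMIs with 7 of the genes, and the next, 21, in a barcode of 1089 UMIs with all 8. Just outside the threshold, the 220 barcodes with a sum of 2 held a median of 1213 UMIs, and just inside, the 89 with a sum of 3 held 1261. Between them Col4a3 stood at 324 and 530 CPM, Tnfaip3 at 81.1 and 108, Cxcl10 at 33.8 and 41.4, Nfkbia at 179 and 149 and Cyp2c39 at 166 and 199. Of these 5 genes, 4 were higher at a sum of 3 and Nfkbia was lower.

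To read each rule gene without its own UMIs in the choice of barcodes, members and matches were chosen again on the other 7. Csf1 then stood at 254 CPM (205 to 310) in 262 barcodes with 3 or more UMIs of the others and at 16.3 CPM (5.97 to 35.4) in matches, a log2 ratio of 3.86 (2.79 to 5.45). Ripk2 gave 3.22 (2.45 to 4.22), Relb 2.68 (1.73 to 3.94), Icam1 2.52 (1.64 to 3.64), Birc3 2.23 (1.65 to 2.89), Steap4 2.04 (1.55 to 2.58), Ikbke 1.95 (1.43 to 2.54) and Plscr1 1.75 (1.19 to 2.39). So each of the 8 was higher in barcodes with 3 or more UMIs of the other 7 than in matches, which were chosen to lack them. The rule, and with it the 8 genes, was chosen with earlier results of these data known. That choice may fix part of these ratios. They are a description and not an independent test of whether the 8 genes vary together. A UMI of Csf1 was held by 22.5% of the barcodes chosen without it and by 2.29% of their matches, and for Steap4 these shares were 53.8% and 18.3%. Barcodes with and without a UMI occurred in both groups for each gene.

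Over all genes, 2925 had at least 50 UMIs in members and matches together once the 17 rule and marker genes were set aside. Of these, 64 were at least 2-fold higher in members (2.19%) and 41 at least 2-fold lower (1.4%), 105 in either direction (3.59%). A ratio above 1 was found for 50.9%, the median log2 ratio was 0.01, and the middle 90% lay between -0.61 and 0.79. The genes highest in members included the NF-kB inhibitor gene Tnfaip3, the chemokine Cxcl10, the transcription factor Irf1 and the survival gene Birc2, with genes of less clear connection such as Pdzrn3, Col4a3 and Slc7a7.

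Tnfaip3, the gene of the ubiquitin-editing enzyme A20 that shuts the pathway down, had 66 and 9 UMIs, or 168 CPM (130 to 214) and 23.3 CPM (10.6 to 44.2), a log2 ratio of 2.79 (1.84 to 4.04). A UMI of it was held by 19.1% of members and 2.89% of matches, so most barcodes of both groups held none. Cxcl10, a chemokine for T cells that both NF-kB and interferon induce, stood at 115 CPM and 15.5 CPM (2.79, 1.65 to 4.41). In the control library Tnfaip3 had 2 UMIs and Cxcl10 1 over 1604 barcodes. Irf1, a transcription factor of the interferon and NF-kB responses, had 128 and 33 UMIs, or 326 and 85.3 CPM (1.92, 1.37 to 2.53). Small barcodes held 106 CPM of it, a level above that of matches and below that of members.

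Birc2, the close relative of Birc3, stood at 206 CPM in members and 54.3 CPM in matches, a log2 ratio of 1.90 (1.22 to 2.69), with control barcodes at 39.6 CPM. Alpk1, a kinase that senses a bacterial sugar and leads to NF-kB, stood at 186 and 31.0 CPM (2.53, 1.69 to 3.60). Slc7a7, a transporter of cationic amino acids, stood at 122 and 12.9 CPM (3.12, 1.92 to 4.93) and had 1 UMI in control barcodes. Pdzrn3, a ubiquitin ligase, had 146 UMIs in 82 members and 22 UMIs in 18 matches (2.68, 2.06 to 3.43). Its control level was 2.44 CPM, against 372 in members and 56.9 in matches. Col4a3 and Col4a4 encode chains of basement membrane collagen and are neighbours read in opposite directions. Col4a3 stood at 723 CPM (642 to 812) in members and 132 CPM (98.1 to 173) in matches, a log2 ratio of 2.44 (2.02 to 2.92), and Col4a4 at 143 and 28.4 CPM (2.28, 1.38 to 3.41). Neither had a UMI in the 1604 control barcodes, which allows up to 1.80 CPM. A Col4a3 UMI was held by 49.8% of members, 15.5% of matches and 25.9% of 112 knockout barcodes with at least 5 UMIs of the 9 markers, whose median total was 1263.5 UMIs.

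Also among the highest genes were Fyb2, an adaptor protein (507 against 150 CPM, log2 1.75), Ankrd55 (112 against 20.7, 2.37), the DNA end-resection factor gene Rbbp8 (186 against 49.1, 1.89), the actin-binding Cap2 (107 against 28.4, 1.86) and the calcineurin inhibitor gene Rcan1 (115 against 31.0, 1.84). Ankrd55 differed from the others in that control barcodes held 310 CPM, above both knockout groups. Rcan1 stood at 103 CPM in the control library, near its level in members.

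**Figure D2:**
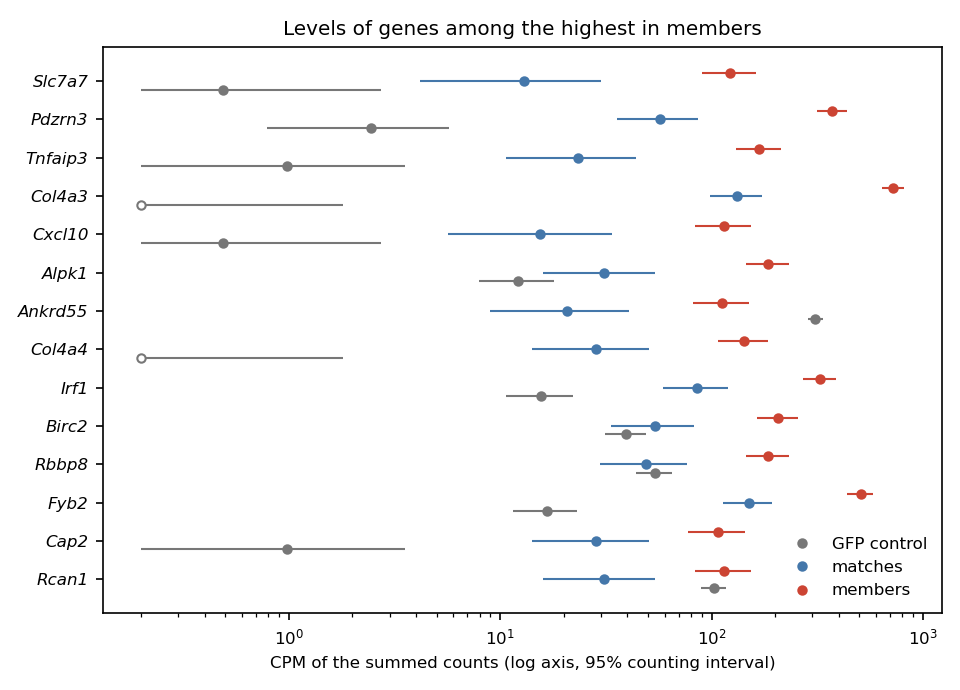
Levels in CPM on a log axis of 14 genes among the highest in members, for members (red), matches (blue) and GFP control barcodes (grey), with lines for 95% counting intervals; open circles at the left edge are 0 UMIs, and lines that reach that edge go on below it. The genes were picked as the highest by the ratio of members to matches, which fixes the order of these 2 groups. Ankrd55 is highest in the control.

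Among the subunits and inhibitors of NF-kB, 7 of 10 listed genes had at least 20 UMIs in both groups together. All 7 were higher in members, 4 of them at least 2-fold, with a median log2 ratio of 1.16. Over all 5491 genes with at least 20 UMIs, the limit used for lists, the median was 0.01, a ratio above 1 was found for 50.1%, 3.95% were at least 2-fold higher and 2.75% at least 2-fold lower. The summed level of all 10 was 1098 CPM in members, 527 in matches and 287 in control barcodes. Nfkbia, the inhibitor that is made again each time the pathway fires, had 96 and 42 UMIs (245 and 109 CPM, log2 1.16). Small barcodes held 198 CPM of it. Nfkb1, the source of p50, stood at 222 and 93.0 CPM (1.24), and Nfkb2, the non-canonical precursor, at 40.8 and 12.9 CPM (1.56) from 16 and 5 UMIs. Bcl3, a nuclear partner of p50 and p52, gave 1.27, Rela 0.95, Rel 0.87 and Nfkbiz, a nuclear inhibitor-like cofactor, 0.71. With barcodes of at least 1500 UMIs, of which 80 were members, the median of the list was 0.68.

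Of the feedback and survival genes 14 of 24 were measured, 11 higher and 3 lower, with 6 at least 2-fold higher and a median of 0.97. Besides Tnfaip3 and Birc2 these were Tnfaip2 (110 and 33.6 CPM, log2 1.67), N4bp1 (1.65), Tnip1, a partner of A20 (58.6 and 20.7 CPM, 1.45), and Malt1 (1.12). Cyld, a deubiquitinase that restrains the pathway, gave 1.00, just under the limit, and Sod2, a mitochondrial enzyme and known target, 0.95. Traf3 gave 0.61, Otulin 0.50, Cflar 0.28, Bcl2l1 -0.02, Xiap -0.05 and Traf2 -0.79. The survival genes Bcl2l1 and Xiap were thus level between the groups.

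The receptors and kinases upstream differed less. Of 18 measured, 14 were higher and 4 lower, 3 at least 2-fold higher and 1 at least 2-fold lower, with a median of 0.24, and all 37 listed summed to 2463 and 2401 CPM. Irak3, an inhibitor of interleukin-1 and Toll-like receptor signalling, stood at 56.0 and 12.9 CPM (2.01). Map3k14, the kinase of the non-canonical branch, stood at 68.8 and 25.8 CPM (1.37), and Tank, an adaptor of Ikbke and Tbk1, at 122 and 46.5 CPM (1.37). Ikbkb gave 0.83, Tlr3 0.65, Tbk1 0.63, Irak2 0.44, Tirap 0.38, Ltbr 0.29, Azi2 0.20, Chuk 0.19, Ripk1 0.18, Il1rap 0.12 and Tab2 0.08. Lower in members were Il1r1, the interleukin-1 receptor (428 against 775 CPM from 168 and 300 UMIs, -0.86), Tnfrsf1b, the second TNF receptor (20.4 against 56.9 CPM, -1.43), Map3k7 (-0.51) and Ikbkg (-0.09).

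Chemokines and cytokines were measured for 8 of 34 genes found in the files, 6 higher and 2 lower, 5 of them at least 2-fold higher, with a median of 1.13. Cxcl1, a neutrophil attractant, had the most UMIs, 427 in members and 194 in matches (1087 and 501 CPM, log2 1.11). A Cxcl1 UMI was held by 72.2% of members and 42.6% of matches, so the groups overlapped widely, and the control level was 84.0 CPM. Cxcl2 had 23 and 2 UMIs (3.21), and Ccl9, a macrophage-attracting chemokine, 31 and 4 (2.79). Tnfsf10 gave 1.14, Il18 0.11 and Cxcl9 -0.15. Cxcl12, which hepatocytes and stromal cells make steadily, was lower in members (229 against 341 CPM, -0.57). Of the listed chemokines and cytokines 13 had no UMI in members.

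**Figure D3:**
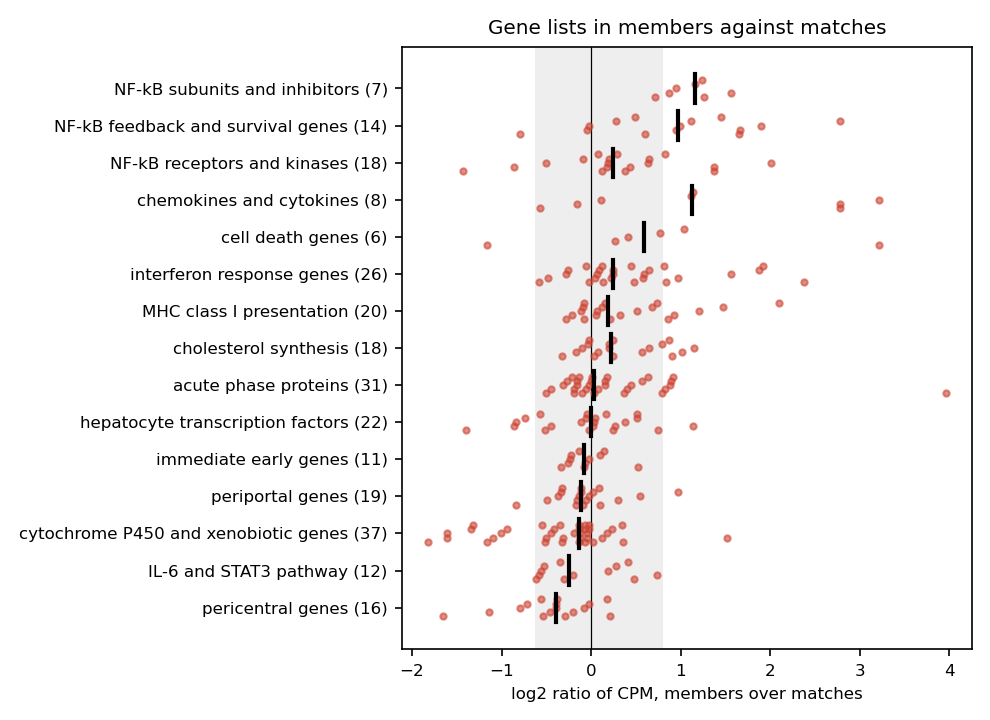
Log2 ratio of CPM, members over matches (horizontal axis), for each measured gene (point) of 15 lists, with the number of genes in brackets and the list median as a black bar; the grey band holds the middle 90% of all 2925 genes compared. The band is of genes with at least 50 UMIs, of which 2.19% were at least 2-fold higher. The points are of genes with at least 20, where ratios spread more (3.95%). The medians of NF-kB subunits and inhibitors (1.16), feedback genes (0.97) and chemokines (1.13) lie right of the band, while acute phase proteins (0.03) and immediate early genes (-0.08) lie near 0.

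Acute phase proteins, which the liver secretes in inflammation, had a list median near 0 and a slightly higher sum in members. All 34 listed summed to 45669 CPM in members and 40655 CPM in matches (log2 0.17, 0.14 to 0.20). Of 31 measured, 17 were higher and 14 lower, with a median of 0.03, and 1 was past 2-fold. Saa1, a classical acute phase gene, had 585 UMIs in each group (1490 and 1512 CPM, log2 -0.02), and Fgb, a fibrinogen chain, stood at 6805 and 7588 CPM (-0.16). In control barcodes Saa1 stood at 35.2 CPM. It was therefore far higher in both knockout groups than in the control and did not differ between members and matches beyond counting error. Cp, the copper carrier ceruloplasmin, was the largest exception by UMIs, with 2489 and 1304 (6339 and 3370 CPM, 0.91), and Lcn2, an iron-siderophore binder, stood at 1212 and 814 CPM (0.57). Saa4 (0.88), Lbp (0.82), Crp (0.79), C3 (0.45) and Hpx (0.37) were among others higher beyond counting error. Among those lower beyond it were C4b (-0.44), Itih4 (-0.31) and Fgg (-0.22). Free RNA held more Saa1 (5017 CPM in small barcodes) than either group, and less Cp (3181 CPM) than members.

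Genes of interleukin-6 and STAT3 signalling, measured for 12, were 5 higher and 7 lower with a median of -0.25, from Hif1a at 0.74 to Il6ra, the receptor, at -0.62. Immediate early genes, which respond within minutes to stress and to tissue digestion, were 3 higher and 8 lower of 11 with a median of -0.08. Jun stood at 639 and 651 CPM, Fos at 267 and 339 and Atf3 at 153 and 106. All 24 listed immediate early genes summed to 4350 CPM in members, 4623 in matches and 1640 in control barcodes. The integrated stress and unfolded protein response list had a median of -0.15 (2 higher, 8 lower) and p53 targets one of -0.13 (2 higher, 5 lower).

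Interferon response genes were higher for 20 of 26, with a median of 0.24 and 4 at least 2-fold higher. Ifit2, an RNA-binding antiviral protein, had 18 and 3 UMIs (2.38), Iigp1 117 and 120 (-0.06) and Irf2 132 and 110 (0.24), and Xaf1 was lowest (-0.58). In MHC class I presentation 14 of 20 were higher with a median of 0.18. Tap2, a subunit of the peptide transporter, had 19 and 4 UMIs (2.09), while the abundant B2m (909 and 1054 CPM, -0.21) and H2-D1 (-0.09) were level or lower and Calr was lowest (-0.28). MHC class II genes were lower for all 3 measured (median -0.50), and the 7 listed summed to 306 CPM in members, 442 in matches and 1362 in small barcodes. Among cell death genes 5 of 6 were higher with a median of 0.59. Casp4, the inflammatory caspase that senses lipopolysaccharide, had 42 UMIs in 33 members and 4 in 4 matches (107 and 10.3 CPM, 3.22), and Fas, a death receptor, stood at 145 and 69.8 CPM (1.04). Mlkl, the executioner of necroptosis, was at 17.8 and 41.4 CPM (-1.16, from 7 and 16 UMIs).

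The 10 lowest genes named by the rule were Jchain, Slpi and 8 others, several of them genes of drug and lipid metabolism. Jchain (1 and 165 UMIs) and Slpi (2 and 203) came from 5 and 6 matches, the barcodes with plasma cell RNA. Without barcodes that held 10 or more immunoglobulin UMIs the count of genes at least 2-fold lower was 31 instead of 41, that of higher genes was again 64, and the log2 ratio of Jchain turned from -6.81 to 1.56. Cyp2c39, a cytochrome P450 of the region near the central vein, stood at 120 CPM (87.9 to 159) in members and 300 CPM (248 to 360) in matches, a log2 ratio of -1.32 (-1.85 to -0.82), with 614 CPM in control barcodes. Cyp2c54 gave -1.34, Cyp2c50 -1.17, Cyp2c38 -1.82 and Cyp2c29, the most abundant of the subfamily, -1.09 (1342 against 2861 CPM from 527 and 1107 UMIs). Near-identical genes of this subfamily can share reads, so their separate levels are less certain. Others of the subfamily differed by less than counting error, with Cyp2c67 at 369 and 403 CPM (-0.13) and Cyp2c70 at 764 and 700 CPM (0.13). Of the other genes, Mgll, a monoglyceride lipase, gave -1.46, Ugt2a3, a glucuronosyltransferase, -1.52, Adgrb3, an adhesion receptor, -2.01, and Fam107b -1.22. Hnf4aos, the antisense neighbour of Hnf4a, gave -1.22 (62 and 143 UMIs). The strand setting of the counting was not given in the sources used here, so reads of Hnf4aos and Hnf4a may not be fully separated.

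Across cytochrome P450 and xenobiotic genes 30 of 37 were lower and 7 higher, 8 at least 2-fold lower, with a median of -0.14. Of these 8, 7 were of the Cyp2c subfamily and the other was Cyp2b9, while Cyp3a25 (5740 and 6316 CPM, -0.14) and Cyp3a11 (-0.07) were nearly level. Fmo1, a flavin monooxygenase, went the other way, at 545 and 189 CPM (1.52). Pericentral genes, which mark hepatocytes around the central vein, were lower for 14 of 16, with a median of -0.40, and all 26 listed summed to 3871 CPM in members, 5660 in matches and 10402 in control barcodes. Cyp2e1 stood at 1653 and 2716 CPM (-0.72), Aldh1a1 at 744 and 979 (-0.40), and Slc1a2, the glutamate transporter of the last row of cells, at 25.5 and 82.7 CPM (-1.65). Periportal genes, the opposite end of the lobule, were lower for 13 of 19 with a smaller median of -0.11, from Hal (-0.84) to Hsd17b13, a lipid droplet enzyme (0.98), and Cps1 of the urea cycle stood at 2384 and 3352 CPM (-0.49). Transcription factors of hepatocytes were evenly divided (11 higher, 11 lower, median 0.00). Klf15 was lowest (-1.40), Ppara, the regulator of fatty acid oxidation, stood at 619 and 1122 CPM (-0.86), Zbtb20 at 2427 and 2357 (0.04), and Nr5a2 at 581 and 346 (0.74).

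Cholesterol synthesis genes were higher for 13 of 18, with a median of 0.22. Sc5d, an enzyme of the late pathway, stood at 560 and 473 CPM (0.24), and Insig2, which holds the sterol sensor in the endoplasmic reticulum, at 1090 and 1228 CPM (-0.17). Most other metabolic lists leaned slightly lower. The medians were -0.30 for bile acid genes (15 of 18 lower), -0.17 for fatty acid oxidation (15 of 19), -0.14 for glutamine and urea cycle genes (12 of 18), -0.13 for iron and metal handling (8 of 10), -0.14 for secreted plasma proteins and apolipoproteins (18 of 27) and -0.09 for clock genes (9 of 13). Signals to macrophages had a median of 0.04 over 7 genes and nuclear long noncoding RNAs one of 0.04 over 4. Adhesion and surface genes (-0.16) and ductal and injury-associated genes (0.22) were each measured for 3, and no proliferation gene reached 20 UMIs.

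Levels at each step of the sum were read for the genes that differed between members and matches. Among the 64 genes at least 2-fold higher in members, 36 (56.3%) were higher at each step from a sum of 0 to 1, 2, 3 to 4 and 5 or more, against 132 (4.51%) of all 2925. Among the 41 lower genes 10 (24.4%) were lower at each step, against 2.94% of all. These genes were chosen for their difference between high and zero sums, which fixes part of this order. Tnfaip3 went from 26.9 CPM at 0 through 50.6, 81.1 and 119.5 to 234 CPM at 5 or more. Irf1 went from 83.0 through 123, 152 and 226 to 462 CPM, and Pdzrn3 from 56.1 to 462 CPM. Cyp2c39 went from 249 CPM at a sum of 0 through 184, 166 and 151 to 77.9 CPM. Barcodes with 1 or 2 UMIs of the 8 genes, which are neither members nor matches, therefore held intermediate levels of these 4 genes.

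**Figure D4:**
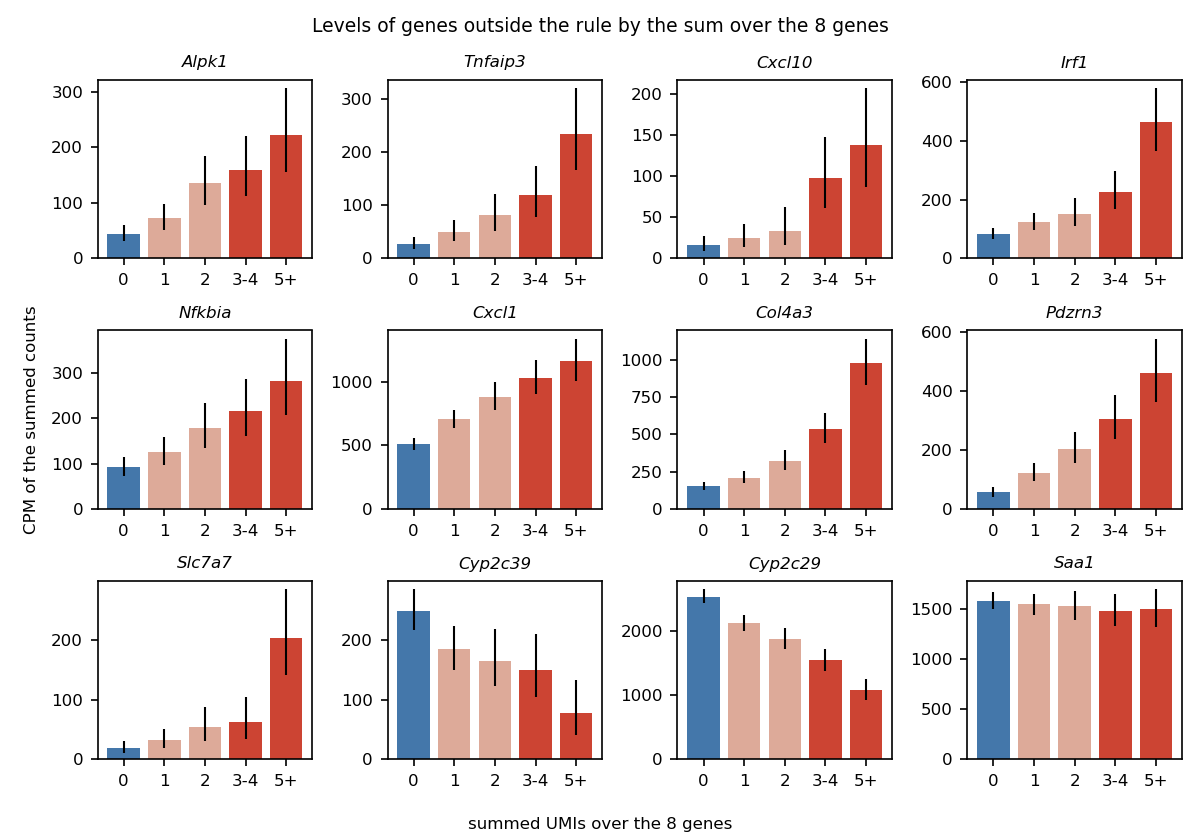
Level in CPM (vertical axes, from 0) of 12 genes outside the rule in knockout barcodes with 0 (blue), 1 and 2 (pink), 3 to 4 and 5 or more (red) summed UMIs over the 8 genes, with lines for 95% counting intervals. Tnfaip3, Irf1, Nfkbia, Cxcl1, Col4a3 and Pdzrn3 are higher at each step, Cyp2c39 and Cyp2c29 lower, and Saa1 is level.

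Control barcodes stood below matches for 40 of the 64 higher genes (62.5%) and for 54.1% of all genes compared, so this share was not far from that of other genes. For 3 of the 64 the control was above members. Of the 41 lower genes, 30 (73.2%) were higher in control barcodes than in members, against 44.2% of all genes compared, and small barcodes were above members for none of the 64, against 25.4%. The choice of genes as high or low in members fixes part of both counts.

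Members differed among themselves. Steap4 and Plscr1 supplied much of the sum, and 151 members reached 3 UMIs on the other 6 genes alone, while 126 did not. Between these kinds Cxcl10 stood at 162 and 56.8 CPM, a log2 ratio of 1.46 (0.46 to 2.69), Col4a4 at 189 and 85.2 CPM (1.12, 0.27 to 2.11) and Tnfaip3 at 212 and 114 CPM (0.88, 0.12 to 1.74). Cxcl1 stood at 1140 and 1022 CPM (0.16, -0.13 to 0.44) and Nfkbia at 268 and 216 CPM (0.30, -0.30 to 0.94), differences within counting error. The 126 others were still above matches, which held 15.5 CPM of Cxcl10, 28.4 of Col4a4 and 23.3 of Tnfaip3. Cyp2c54 was lower in the 151 (32.3 against 102 CPM, -1.60).

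Knockout barcodes of at least 1000 UMIs were also clustered without the 17 rule and marker genes, which gave 12 clusters. The clusters are given by number, and the genes that lead them formed them and are a description. Cluster 6, with 139 barcodes led by Pdzrn3, Casp4, Fmo1, Col4a3, Slc7a7 and Tnfaip3, held 81 members (29.2%) and 12 of the 673 zero-sum barcodes (1.78%). Cluster 5, with 209 barcodes led by Ankrd55, Tox and Irf1 and including Lgr5 and Tnfaip3 among its first genes, held 67 members (24.2%) and 6.09% of zero-sum barcodes. Cluster 0 held a further 41 members (14.8%). At the other end, cluster 4, led by Mup11, Cyp2c39 and Cyp2b9, held 30.6% of zero-sum barcodes and 9 members. Members thus fell into several clusters and not into 1.

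**Figure D5:**
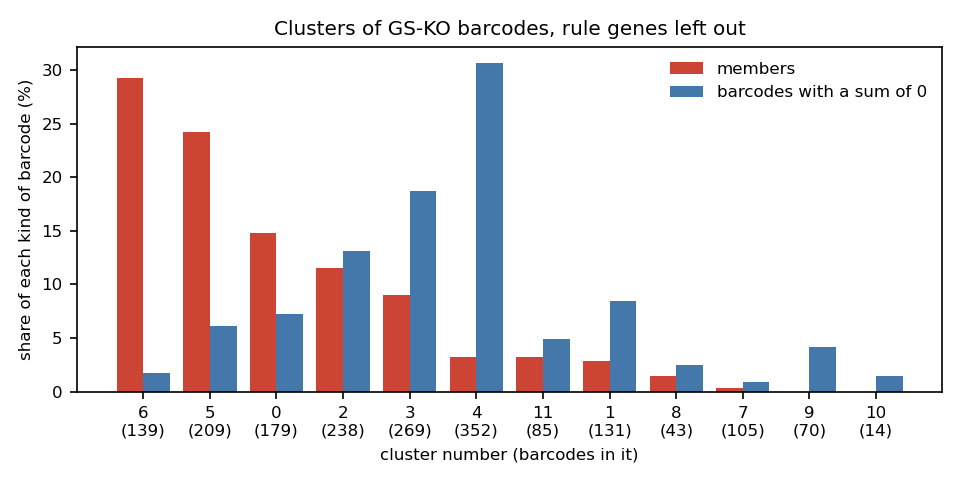
Share of the 277 members (red) and of the 673 knockout barcodes with a sum of 0 (blue) in each of 12 clusters (horizontal axis, number of barcodes in brackets), ordered by the share of members. Clusters 6, 5 and 0 hold 29.2%, 24.2% and 14.8% of members, and cluster 4 holds 30.6% of zero-sum barcodes.

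Listed NF-kB transcripts outside the rule were level between members of clusters 6 and 5, and zonal genes differed. The clusters were formed from genes outside the rule in these same barcodes. This fixes part of the differences below, which are a description. The median sum over the 8 genes was 5 in members of cluster 6 and 4 in those of cluster 5. Listed NF-kB subunits and inhibitors outside the rule summed to 1273 CPM (1067 to 1508) in the 81 members of cluster 6 and 1276 CPM (1059 to 1525) in the 67 of cluster 5. Tnfaip3 stood at 228 and 221 CPM and Cxcl1 at 1245 and 1424. Listed pericentral genes summed to 2632 CPM (2331 to 2961) in cluster 6 and 5314 CPM (4860 to 5799) in cluster 5, and periportal genes to 13093 and 8562 CPM. Lgr5, a receptor of the Wnt pathway found near the central vein, had 0 UMIs in members of cluster 6 and 12 in those of cluster 5, and Cyp2c29 stood at 608 and 2183 CPM. Hal, a periportal enzyme of histidine breakdown, stood at 209 and 63.3 CPM. Members of cluster 6 held more of the rule gene Ripk2 (817 and 316 CPM). They also held more of 4 genes that lead the cluster: Fmo1 (1045 and 474), Casp4 (209 and 73.8), Pdzrn3 (627 and 179) and Col4a3 (1207 and 633). The other 88 members, outside clusters 6, 5 and 0, had the lowest levels of Tnfaip3 (82.8 CPM), Cxcl1 (720 CPM) and Col4a3 (455 CPM) of these 4 sets. For other genes the 41 members of cluster 0 were lowest, among them Nfkbia (167 CPM), Nfkb1 (181 CPM) and Cxcl10 (55.7 CPM). The 88 held 215, 207 and 66.2 CPM of these, with overlapping intervals.

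Rule genes were also read in the 112 knockout barcodes with at least 5 UMIs of the 9 markers, mostly Kupffer markers, whose depth (median 1263.5 UMIs) was near that of members. A UMI of Csf1 was held by 8.04% of them and 26.7% of members, of Birc3 by 27.7% and 48.7%, and of Steap4 by 30.4% and 67.1%. Members were chosen on these genes, which fixes part of their higher shares. Knockout barcodes chosen on the other 7 genes gave shares of 22.5% for Csf1, 38.8% for Birc3 and 53.8% for Steap4. That choice fixes part of these shares too. For Tnfaip3, which is outside the rule, the shares were 11.6% in the marker-rich barcodes and 19.1% in members. Over all 1586 knockout barcodes within the limits, Csf1 stood at 71.5 CPM, Birc3 at 165, Steap4 at 267 and Tnfaip3 at 67.2. The marker-rich barcodes held 70.0, 229, 318 and 102 CPM of these genes. Ikbke (156 and 115 CPM) and Plscr1 (154 and 89.1) were lower in the marker-rich barcodes. Kupffer cells are themselves known to use NF-kB, and their barcodes also held hepatocyte RNA, so the shares in the 112 barcodes are no measure of free RNA alone.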

How the data were processed

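The authors deposited 1 matrix of raw UMI counts per library (32285 genes). Per the file headers the software was Cell Ranger 8.0.0, and per the submitters' processing notes the build was mm10. Counts are whole numbers without normalization. The filter on barcodes before deposit was not given in the sources used here.

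Barcodes were chosen by the rule in the report. Members, lists and named genes were chosen with earlier results of these data known. Doublets were not called. Matches were drawn without replacement, members taken from the highest total down. Counts were summed per group and scaled to CPM, and log2 ratios have 0.5 counts added to each sum. Genes with at least 50 UMIs (20 within the 39 lists) in members and matches together were compared.

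Named genes were the 15 highest and 10 lowest ratios with 10 CPM added, among genes of at least 50 CPM in either group, leaving out mitochondrial, ribosomal protein, immunoglobulin, T cell receptor and clone-named genes, and up to 4 genes of each list (the highest, the lowest and those with most UMIs). In the NF-kB lists every measured gene could be named. Some genes fall outside this and were named after their values were seen. Among them are Saa1, Saa4, Lcn2, Lbp, Crp, C3, Hpx, C4b, Itih4, Fgg, Ccl9, Cxcl9, Tnfsf10 and Il18. Others are Cyp2c29, Cyp2c67, Cyp2c70, Cyp2b9, Ppara, Nr5a2, Cebpa and Creb3l3. A few genes that the rule names are not reported here.

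Clusters used 2000 variable genes (scanpy 1.11.5, igraph 0.11.9), 30 principal components, 15 neighbours and Leiden resolution 1.0. Python 3.11.15, numpy 2.4.6, pandas 2.3.3 and scipy 1.17.1 were used. The comparison was tested on simulated counts. Alternatives changed the UMI and sum limits, marker limit, matching, scaling, gene filter, added counts, free RNA and cluster resolution.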

Additional observations from a re-analysis of the deposited data

How the results depend on the processing

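Of 424 values of named genes under the alternatives, 417 kept their direction and moved within their interval, 6 moved further and 1 reversed, Jchain at 1.56 without immunoglobulin barcodes. Of 499 list medians 404 were the same, 93 moved and 2 reversed. Members numbered 497 at a sum of at least 2, 115 at 5, 614 at 500 UMIs per barcode and 80 at 1500. Genes at least 2-fold higher numbered 129 at 500 UMIs per barcode, 30 at 1500, 217 with at least 20 UMIs per gene and 27 with 100. Genes at least 2-fold lower numbered 15 at 1500 UMIs per barcode, 70 against all zero-sum barcodes unmatched, 151 with at least 20 UMIs per gene, 20 with 100 and 27 with 5 counts added. The number of genes tested fell or rose with these limits. At 1500 UMIs the median of NF-kB subunits and inhibitors was 0.68, and with free RNA taken off it was again 1.16. The median of IL-6 and STAT3 pathway genes was 0.0532 at a sum of at least 2, and the median of ductal and injury-associated genes was -0.0887 at 4; the cause was not tested. At Leiden resolution 0.5, 58.1% of members fell in 1 cluster. Leaving out immunoglobulin barcodes, the member with the highest sum, or barcode sequences found in both libraries was chosen after seeing the data. No paired analysis was possible because each group is 1 library.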

Other observations

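Among the 64 genes higher in members were some outside the lists and the named genes, picked here after their values were seen. Pde4b, a phosphodiesterase that lowers cyclic AMP, stood at 532 CPM in members, 176 in matches and 131 in control barcodes (log2 1.59). Apobec1, the enzyme that edits apolipoprotein B RNA, stood at 466, 153 and 31.3 CPM (1.60), and St6gal1, a sialyltransferase secreted by the liver, at 273, 106 and 23.4 CPM (1.35). Slc4a4, a bicarbonate transporter, had 509 and 226 UMIs (1.15), and Alcam, an adhesion molecule, 688 and 338 (1.00). Of lipid genes, Dgat2, which makes triglycerides, gave 1.28, Fads2, a fatty acid desaturase, 1.13 and Acsl4 1.26. Nfe2l2, the gene of the oxidative stress factor Nrf2, gave 1.11 from 136 and 62 UMIs. Cybb, an oxidase subunit of phagocytes, stood at 252 and 95.6 CPM (1.39), with 2.93 CPM in control barcodes and 206 CPM in small barcodes of the knockout library, while the Kupffer markers outside the rule were lower in members (143 and 235 CPM).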
